A study of Sus scrofa with 24 samples.

Results

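The genes described here make fatty acids, join them into triglyceride and coat or hydrolyse lipid droplets in pig liver. Of 39 genes listed for these steps, 22 had a row in both deposited tables of 13463 genes, matched by symbol and not by any measured value. The other 17, which include FASN, ACACA, ACLY, SCD, SREBF1, GPAM, CIDEC and PPARG, were not analysed here. All 22 passed the filter on low counts.

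RNAseq data were collected from the livers of 24 grower pigs, hybrids of Large White, Landrace and Duroc, with 1 library per pig. Sustanon, a mixture of testosterone esters, was injected intramuscularly at 4 mg/kg b.w. into 3 castrated boars (pigs 1, 2 and 3), 3 sows (4, 5 and 6) and 2 uncastrated boars (19 and 20). Myodin, a nandrolone ester, was injected at 5 mg/kg b.w. into 2 castrated boars (8 and 9), 3 sows (10, 11 and 12) and 3 uncastrated boars (22, 23 and 24). Untreated pigs were 3 castrated boars (13, 14 and 15), 3 sows (16, 17 and 18) and 2 uncastrated boars (25 and 27). Castrated boars and sows of a treatment were pooled as pigs without testes, which gave 6 pigs with Sustanon, 5 with Myodin and 6 untreated. Uncastrated boars kept their testes in every treatment group, and the 2 steroids were given at different doses. Per the study's methods, each steroid was injected repeatedly before slaughter, when the livers were taken. Each tested group had its own pens and the controls were kept in another room, so treatment and housing cannot be told apart.

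The liver builds fatty acids from acetyl-CoA and then lengthens them with elongases (ELOVL) and adds double bonds with desaturases (FADS). Lipin phosphatases such as LPIN2 form diacylglycerol, and the acyltransferases DGAT1 and DGAT2 add the last fatty acid to give triglyceride. Triglyceride is stored in droplets coated by perilipins (PLIN), is released by the lipases PNPLA2 and LIPE, or leaves the hepatocyte in lipoproteins. MLXIPL, also called ChREBP, is a carbohydrate-sensing transcription factor that drives lipogenic genes, and THRSP (Spot 14) is a nuclear protein that rises with lipogenesis.

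Counts summed to between 9267780 and 14017276 per library. The Y-linked genes EIF1AY and KDM5D went against the label of 3 untreated libraries. The library labelled castrated boar 15 had 1 and 0 counts of them, and those labelled sow 16 and sow 18 had 476 and 35 and 434 and 95, where EIF1AY had 327 to 564 counts in the other males and 0 to 3 in the other sows. All 3 remain pigs without testes by their labels, and the comparisons were run with and without them. Myodin uncastrated boars 23 and 24 had the lowest median rank correlation with the other libraries, 0.956 and 0.955, against 0.959 to 0.974 for the rest. Hepatocyte markers were abundant in all livers, with ALB between 44883 and 157093 TPM, a level scaled to gene length and library. The adipocyte list had 2 of 6 genes with a row, of which PLIN1 reached 1.58 to 14.7 TPM and RETN was at 0 in 15 libraries. No marker gene of the 7 cell type lists passed the test in a comparison. The 4 stellate and stromal genes with a row summed to 86.1 to 173 TPM with Sustanon in pigs without testes and 42.6 to 123 TPM untreated (median log2 fold change 0.54). The 4 red blood cell genes summed to 1447 to 5839 and 2600 to 8310 TPM (median log2 fold change -0.75). Their part in the Sustanon values below was not tested. In a bulk liver sample, fewer cells of a type and less RNA per cell cannot be told apart.

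The 22 genes covered nearly 3 orders of magnitude in the untreated liver. In the 6 untreated pigs without testes, the highest median was that of CIDEB, a droplet protein that loads triglyceride onto VLDL, with 727 TPM and a range of 622 to 771. FABP1, the fatty acid binding protein of liver cytosol, followed with a median of 385 TPM and CD36, a fatty acid receptor of the cell surface, with 382 TPM. These last genes could not be ordered, since FABP1 ranged from 207 to 708 TPM and CD36 from 226 to 449 TPM. PLIN5 was the most abundant of the perilipins, with a median of 261 TPM, against 122 for PLIN3, 114 for PLIN2 and 22.9 for PLIN4. DGAT2 (226 TPM) stood well above DGAT1 (32.6 TPM), and the ranges of 145 to 296 and 28.8 to 38.9 TPM did not overlap. The last places were held by THRSP with 3.38 TPM, the NADPH-forming malic enzyme ME1 with 1.88 and the hormone-sensitive lipase LIPE with 1.22, each over ranges that met their neighbour's. FADS2 (15.1 to 118 TPM) and ELOVL2 (6.93 to 55.0 TPM) varied widely among these untreated pigs.

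**Figure D1:**
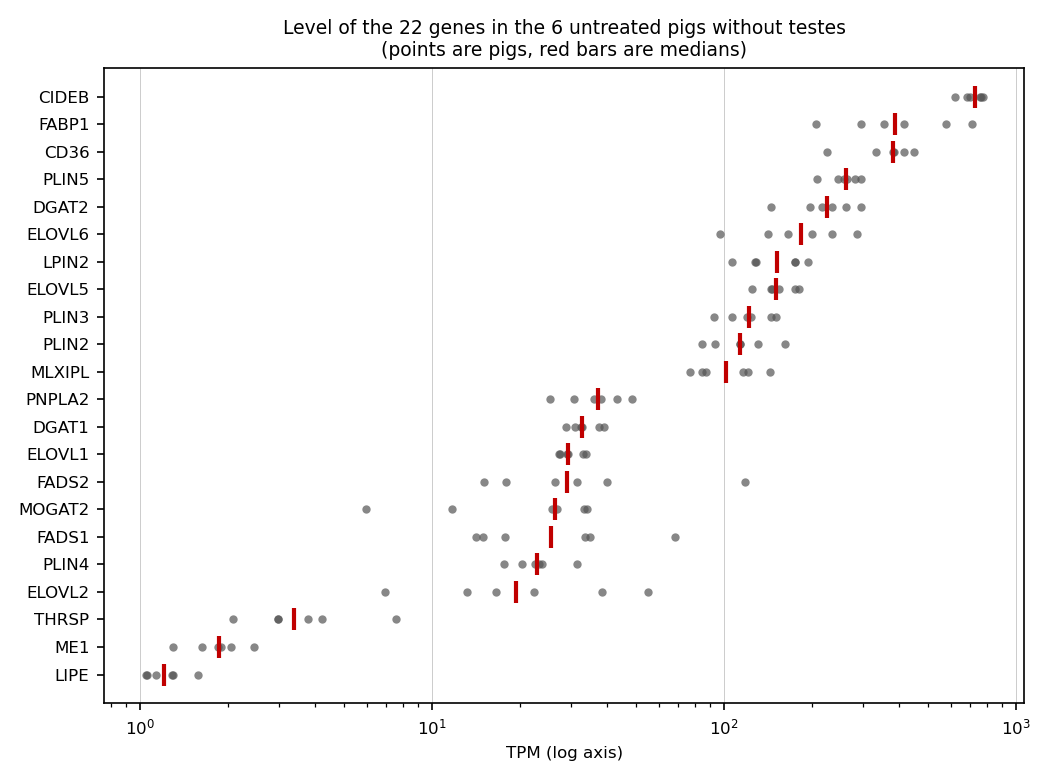
TPM on a log axis of each of the 22 genes in the 6 untreated pigs without testes, ordered by median. Points are pigs and red bars are medians. CIDEB is highest with a median of 727 TPM and LIPE lowest with 1.22 TPM.

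With Sustanon, 3 of the 22 genes differed from untreated pigs among animals without testes. PLIN5 and THRSP rose and DGAT1 fell. In this comparison 5.43% of all 8754 tested genes passed (3.37% higher and 2.06% lower), at a Benjamini-Hochberg adjusted p under 0.05 by edgeR's quasi-likelihood test. Over all 8 Sustanon and 8 untreated pigs, PLIN5 rose and DGAT1 fell, 2 of 22 genes, beside 5.07% of the 8279 genes tested (3.39% higher and 1.68% lower). At an unadjusted p under 0.05 the count over all pigs was 10 of 22 (3 higher and 7 lower), beside 19.6% of all genes (10.8% higher and 8.83% lower). In pigs without testes it was 9 of 22 (3 higher and 6 lower), beside 19% of all genes (9.94% higher and 9.1% lower). The median log2 fold change of the 22 genes was -0.20 over all pigs, where that of all tested genes was -0.01. Without the 3 untreated libraries whose Y-linked counts went against their labels, no member passed in either comparison by edgeR, and 11 of 22 over all pigs and 7 of 22 without testes had an unadjusted p under 0.05. Over all pigs no gene of 8434 passed then, with 1199 at an unadjusted p under 0.05, and in pigs without testes 124 of 8723 passed, with 1277 at an unadjusted p under 0.05.

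**Figure D2:**
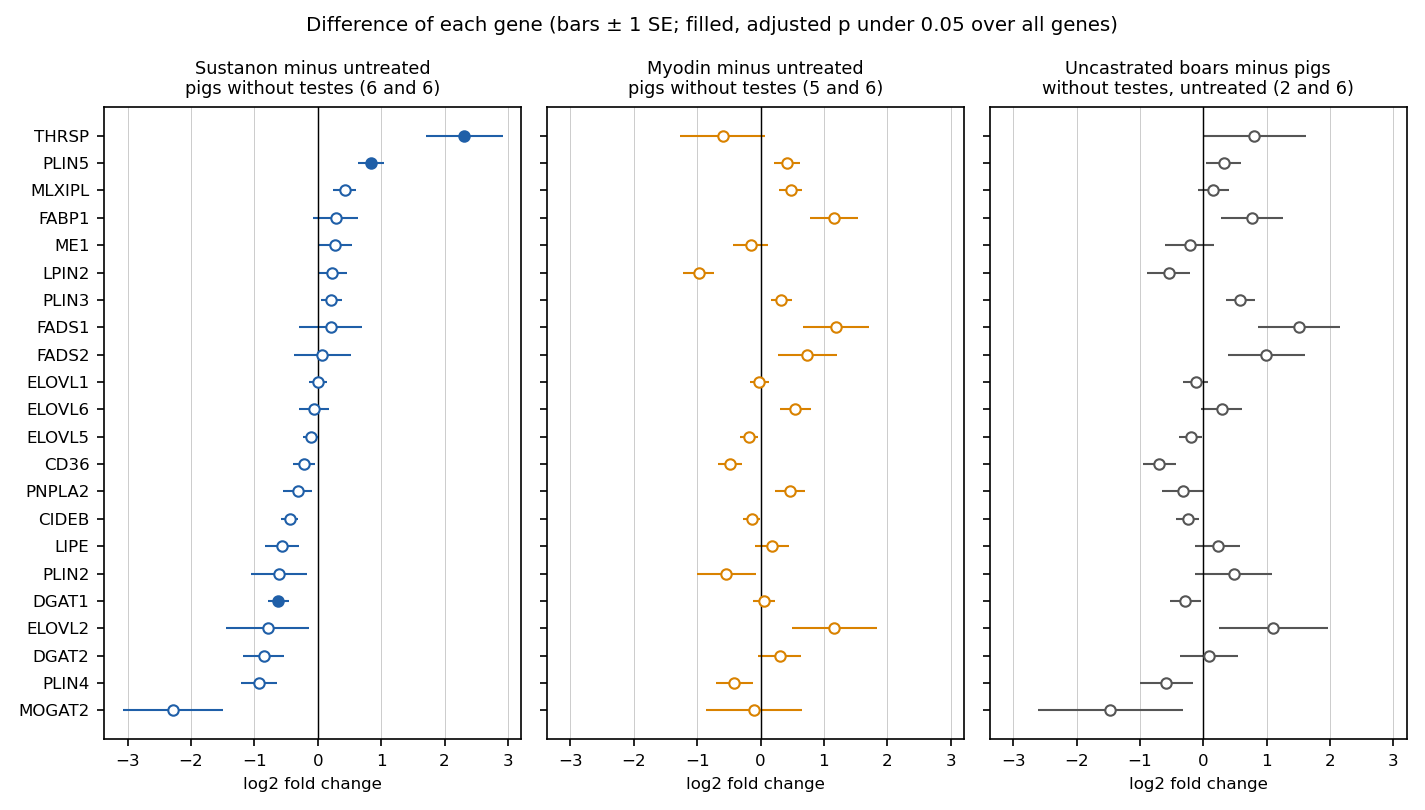
Log2 fold change of each of the 22 genes with bars of 1 standard error, for Sustanon against untreated and Myodin against untreated in pigs without testes, and for uncastrated boars against pigs without testes when untreated. Filled points passed at an adjusted p under 0.05 over all genes, which only THRSP, PLIN5 and DGAT1 did, all with Sustanon.

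PLIN5, the perilipin that tethers lipid droplets to mitochondria, lies on chromosome 2 of Sscrofa11.1 at chr2:74304613-74314314. In pigs without testes it reached 321, 439 and 265 CPM (counts scaled to a common library total) in Sustanon castrated boars 1, 2 and 3 and 458, 519 and 441 CPM in Sustanon sows 4, 5 and 6. The 6 untreated pigs ranged from 177 to 277 CPM with a median of 227. Of the Sustanon pigs, 5 of 6 were above every untreated pig, and castrated boar 3 was inside their range. The log2 fold change was 0.84 ± 0.20 (SE, adjusted p = 0.0149), a 1.79-fold rise. Sustanon uncastrated boars 19 and 20 had 494 and 399 CPM, both above untreated boars 25 and 27 with 241 and 327 CPM. Over all pigs the log2 fold change was 0.80 ± 0.18 (SE, adjusted p = 0.0145). The call held with each of the 24 libraries left out, with adjusted p up to 0.0370 over all pigs and 0.0432 without testes. Without the 3 untreated libraries together, it was 0.77 (adjusted p = 0.126) over all pigs and 0.88 (adjusted p = 0.108) in those without testes.

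The other perilipins did not pass the test. PLIN4, a perilipin found mainly in adipocytes and muscle, starts next to PLIN5 at chr2:74318624-74331920. Its Sustanon pigs without testes had 56.0, 36.1, 51.5, 78.1, 49.4 and 50.6 CPM in the order of pigs 1 to 6, where untreated pigs ranged from 70.9 to 147 CPM. All but sow 4 lay below every untreated pig, and the log2 fold change was -0.93 ± 0.29 (SE, adjusted p = 0.0609), and over all pigs -0.87 ± 0.28 (SE, adjusted p = 0.0659). In pigs without testes PLIN4 passed with DESeq2 (adjusted p = 0.0228), and in a fit of only these 2 groups (adjusted p = 0.00946). It also passed without Sustanon sow 4 (0.0422) or Myodin boars 22 (0.00338), 23 (0.0366) or 24 (0.0334). Over all pigs PLIN4 passed with DESeq2 (adjusted p = 0.0304), with sex class as a covariate (0.0371) and in a fit of only the groups compared (0.00808). There it also passed without Sustanon sow 4 (0.0484) or Myodin boars 23 (0.0258) or 24 (0.0292). The difference of its neighbour PLIN5 had the opposite sign. The summed TPM of the adipocyte genes PLIN1 and RETN was 2.27 to 11.5 in these Sustanon pigs and 6.77 to 12.8 in the untreated ones, and its part in the PLIN4 values was not tested. PLIN1 itself had a log2 fold change of -0.69 ± 0.39 (SE, adjusted p = 0.359).

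PLIN2, the droplet coat whose protein follows the amount of stored lipid, had 63.7, 62.4, 97.0, 93.0, 34.4 and 318 CPM in Sustanon pigs 1 to 6. Untreated pigs without testes ranged from 125 to 217 CPM. All Sustanon pigs but sow 6 were below that range and sow 6 was above it, and the log2 fold change was -0.61 ± 0.44 (SE, adjusted p = 0.504). Over all pigs it was -0.92 ± 0.39 (SE, adjusted p = 0.181), and it passed without sow 6 at -1.48 (adjusted p = 0.0168). PLIN3, a coat of small and nascent droplets, had a median of 153 CPM with Sustanon and 141 CPM untreated, with a log2 fold change of 0.21 ± 0.16 (SE, adjusted p = 0.537). PLIN2 to PLIN5 were also taken as shares of their summed TPM. PLIN5 took a median of 71.3% (59.0 to 82.8%) in the 6 Sustanon pigs and 51.0% (39.1 to 55.2%) in the 6 untreated pigs. PLIN2 took 7.08% (2.68 to 21.3%) against 21.6% (16.3 to 30.4%). In Myodin pigs without testes PLIN5 took 55.1% (50.3 to 75.4%) and PLIN2 14.9% (5.95 to 17.5%), ranges that met those of both other groups. These shares were computed after the values were seen and are given as a description.

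CIDEB had a median of 517 CPM in the Sustanon pigs without testes (447 to 683) and 742 CPM in the untreated ones (581 to 857). Here 5 of 6 Sustanon pigs were below every untreated pig, with castrated boar 1 as the exception, and the log2 fold change was -0.44 ± 0.13 (SE, adjusted p = 0.0504), and over all pigs -0.36 ± 0.11 (SE, adjusted p = 0.0626). The former passed with DESeq2 (adjusted p = 0.0204), and without castrated boar 1 (0.0209), untreated sows 17 (0.0379) or 18 (0.0464), or Myodin boars 22 (0.0471), 23 (0.0242) or 24 (0.0426). The latter passed with DESeq2 (adjusted p = 0.0343), and without castrated boar 1 (0.0270), Myodin boar 23 (0.0262) or untreated boar 27 (0.0432). The droplet lipases did not pass. PNPLA2, the adipose triglyceride lipase, had medians of 35.9 and 47.5 CPM in Sustanon and untreated pigs (adjusted p = 0.511), and LIPE had 1.54 and 2.18 CPM (adjusted p = 0.244).

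Among the enzymes that close triglyceride synthesis, DGAT1 passed the test. It lies at chr4:452890-463665 and encodes the acyltransferase of the endoplasmic reticulum that esterifies incoming fatty acids. Sustanon pigs 1 to 6 had 55.6, 33.9, 56.7, 37.9, 30.6 and 34.6 CPM, and untreated pigs without testes ranged from 55.3 to 79.8 CPM with a median of 62.8. Castrated boars 1 and 3 sat at the bottom of the untreated range and the other 4 were below it. The log2 fold change was -0.62 ± 0.17 (SE, adjusted p = 0.0324), a level 0.650 times the untreated one. Sustanon boars 19 and 20 had 27.2 and 40.5 CPM and untreated boars 25 and 27 had 50.5 and 54.7 CPM. Over all pigs the log2 fold change was -0.62 ± 0.16 (SE, adjusted p = 0.0226).

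The DGAT1 call was lost when any 1 of several libraries was left out, with log2 fold changes between -0.64 and -0.55 in those fits. Over all pigs these were Sustanon sow 5 (adjusted p = 0.0556), Sustanon boar 19 (0.0583) and untreated castrated boar 14 (0.0533). The call in pigs without testes was lost in 8 of 24 such fits, those without Sustanon pigs 2, 4, 5 or 6 or untreated pigs 14, 15, 16 or 18, with adjusted p from 0.0505 to 0.0849. It was also lost there by limma on the log2(TPM + 1) table, at -0.56 (adjusted p = 0.0690). Without the 3 untreated libraries together the log2 fold change was -0.59 (adjusted p = 0.155) over all pigs and -0.63 (adjusted p = 0.162) without testes.

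DGAT2 and MOGAT2 lie close together on chromosome 9, at chr9:10032163-10066082 and chr9:9937654-9951679. DGAT2, which esterifies newly made fatty acids, had 431, 151, 418, 346, 149.8 and 307 CPM in Sustanon pigs 1 to 6 and 384 to 759 CPM in the untreated pigs without testes. Sustanon boars 19 and 20 had 123 and 184 CPM, below untreated boars 25 and 27 with 722 and 436 CPM. Over all pigs 6 of 8 Sustanon pigs were below every untreated pig, and the log2 fold change of -1.06 ± 0.32 (SE, adjusted p = 0.0531) missed the threshold. It passed with DESeq2 (adjusted p = 0.0168) and with sex class as a covariate (adjusted p = 0.0214), and in a fit of only these groups (0.0182). It also passed without Sustanon castrated boars 1 (0.0298) or 3 (0.0321) or Myodin boars 23 (0.0123) or 24 (0.0433). In pigs without testes it was -0.85 ± 0.32 (SE, adjusted p = 0.139).

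MOGAT2 makes diacylglycerol from monoacylglycerol and is best known from the intestine. It had 10.3, 0.324, 8.45, 0.537, 0.191 and 2.0 CPM in Sustanon pigs 1 to 6 and 0 and 0.0943 CPM in boars 19 and 20, from between 0 and 124 counts per library. A count of 0 allows up to 3 counts, by counting error alone. Untreated pigs without testes ranged from 4.91 to 24.3 CPM, and untreated boars had 7.43 and 5.73 CPM. Castrated boars 1 and 3 were again within the untreated range, and the other 6 Sustanon pigs were below it. The log2 fold change was -2.29 ± 0.79 (SE, adjusted p = 0.0939) in pigs without testes and -2.45 ± 0.81 (SE, adjusted p = 0.0765) over all pigs. Over all pigs it passed with sex class as a covariate (adjusted p = 0.0193) and by limma on the log2(TPM + 1) table (adjusted p = 0.0260). Without castrated boar 1 it was -3.17 (adjusted p = 0.0260) and without castrated boar 3 it was -2.94 (adjusted p = 0.0386). It also passed without Myodin boar 23 (adjusted p = 0.0465), and without the 3 untreated libraries it was -2.22 (adjusted p = 0.276). In pigs without testes it passed by limma (adjusted p = 0.0291), in a fit of 9 groups (0.0423) and without Myodin boar 22 (0.0361). Without castrated boar 1 it was -2.94 there (adjusted p = 0.0417), and without the 3 untreated libraries -2.22 (adjusted p = 0.280).

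THRSP, also on chromosome 9 (chr9:12479913-12484323), had the largest positive difference of the 22 genes. Sustanon pigs 1 to 6 had 1.75, 39.1, 3.35, 52.3, 37.3 and 13.4 CPM, where untreated pigs without testes ranged from 2.53 to 9.23 CPM with a median of 4.67. Castrated boar 1 was below the untreated range, castrated boar 3 was inside it and the other 4 pigs were above it. The log2 fold change was 2.31 ± 0.60 (SE, adjusted p = 0.0257), a 4.97-fold rise. Sustanon boars 19 and 20 had 14.5 and 13.2 CPM and untreated boars 25 and 27 had 7.25 and 9.96 CPM, and over all pigs the log2 fold change was 1.91 ± 0.64 (SE, adjusted p = 0.0814). Over all pigs it passed with DESeq2 (adjusted p = 0.0494), with sex class as a covariate (0.0477), in a fit of only these groups (0.0374), and without Sustanon castrated boar 1 (0.0374) or 3 (0.0469). The call in pigs without testes was lost without Sustanon pigs 2, 4 or 5 or untreated pigs 13 or 17, with adjusted p from 0.0595 to 0.0692 and log2 fold changes from 1.94 to 2.22. It was also lost with limma on the deposited values, where the log2 fold change was 1.56 (adjusted p = 0.135), in a fit of only these 2 groups (adjusted p = 0.0525), and without the 3 untreated libraries, where it was 2.32 (adjusted p = 0.188).

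**Figure D3:**
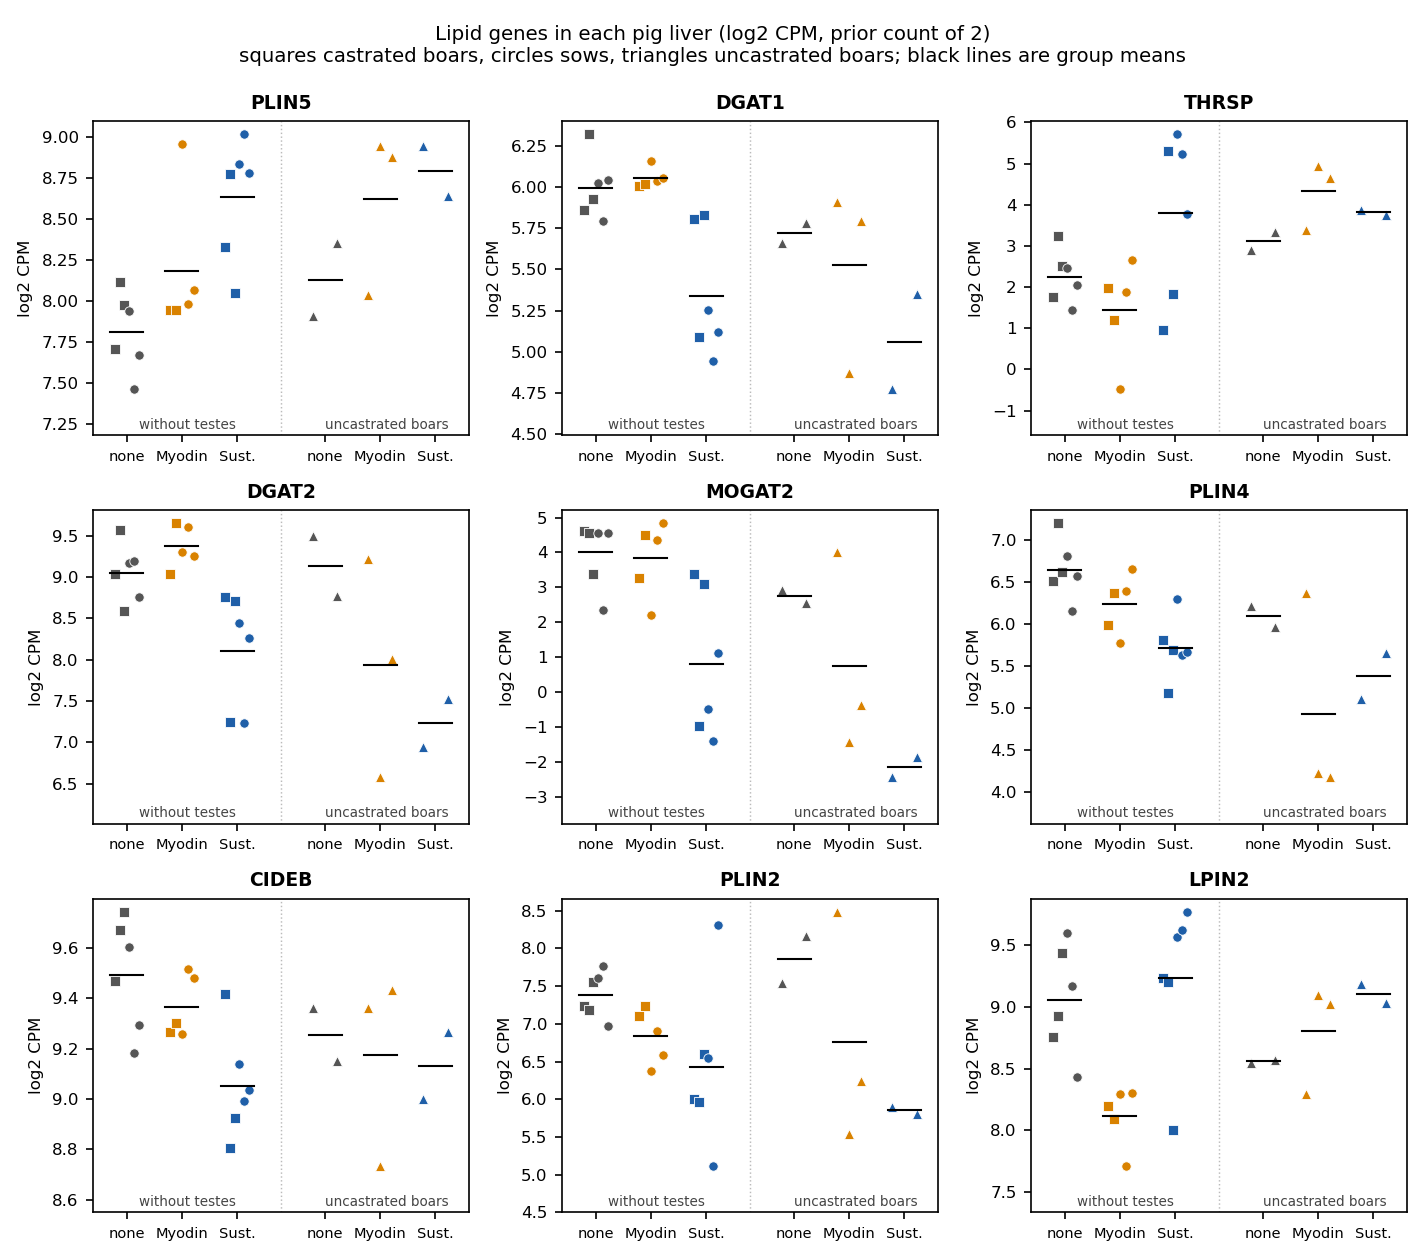
Log2 CPM of 9 genes in each pig, by treatment (none, Myodin, Sustanon), with pigs without testes left of the dotted line and uncastrated boars right of it. Black lines are group means. Among Sustanon pigs without testes, 2 castrated boars lie with untreated pigs for DGAT1, DGAT2 and MOGAT2, and all Myodin pigs without testes lie below untreated ones for LPIN2.

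The enzymes that build fatty acids from acetyl-CoA, among them ACLY, ACACA and FASN, had no row, so their response to Sustanon is not known here. Of the genes around this step with a row, MLXIPL, ELOVL6 and ME1 did not pass with Sustanon by edgeR with all libraries. MLXIPL had a median of 290.2 CPM in Sustanon pigs without testes (236 to 332) and 192 CPM in the untreated ones (156 to 310), with a log2 fold change of 0.42 ± 0.18 (SE, adjusted p = 0.182). Over all pigs it was 0.44 ± 0.15 (SE, adjusted p = 0.0843), and it passed without untreated castrated boar 14 at 0.53 (adjusted p = 0.0475). ELOVL6, the elongase of newly made palmitate, was at medians of 614 and 705 CPM (log2 fold change -0.06 ± 0.23 SE, adjusted p = 0.928). ME1 had 3.83 and 3.05 CPM (adjusted p = 0.644). The polyunsaturated pathway did not pass either, with log2 fold changes of 0.07 ± 0.45 (SE) for the delta-6 desaturase FADS2, 0.21 ± 0.50 (SE) for the delta-5 desaturase FADS1, -0.79 ± 0.65 (SE) for ELOVL2 and -0.11 ± 0.13 (SE) for ELOVL5. Without the 3 untreated libraries FADS2 and FADS1 had the opposite sign, at -0.29 and -0.11. ELOVL1, which makes very long saturated chains, had a log2 fold change of 0.01 ± 0.14 (SE). For uptake and binding, CD36 had -0.21 ± 0.18 (SE) and FABP1 0.28 ± 0.36 (SE). LPIN2 had medians of 681 CPM with Sustanon and 533 CPM untreated, and Sustanon castrated boar 3 with 256 CPM was below every untreated pig.

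With Myodin, no member passed against untreated pigs by edgeR, in all pigs or in those without testes. Over all pigs no gene of 8279 passed, 0% of those tested, and 5 of the 22 members had an unadjusted p under 0.05 beside 7.21% of all genes. In pigs without testes 0.0914% of genes passed, and 6 of 22 members had an unadjusted p under 0.05 (4 higher and 2 lower) beside 10.1% of all genes (5.52% higher and 4.62% lower). DESeq2 called 0 members over all pigs and 1, LPIN2, in pigs without testes. In the latter it also called more of all genes than edgeR did, as counted in the last section.

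LPIN2 had the smallest p of the members with Myodin in pigs without testes. Myodin castrated boars 8 and 9 had 293 and 273 CPM and Myodin sows 10, 11 and 12 had 314, 209 and 315 CPM. The untreated pigs without testes had 433, 488, 694, 775, 577 and 346 CPM in the order of pigs 13 to 18. All Myodin pigs were below all untreated pigs, a separation that 1.72% of all genes showed in this comparison. The summed TPM of the 2 bile duct genes with a row was also lower in every Myodin pig, at 10.2 to 13.5 against 14.2 to 20.7 TPM (median log2 fold change -0.49), and its part in the Myodin values was not tested. The LPIN2 log2 fold change was -0.98 ± 0.25 (SE) with an adjusted p of 0.122 by edgeR, and DESeq2 gave an adjusted p of 0.0164. It passed by edgeR without Sustanon castrated boar 3 (adjusted p = 0.0447), a pig of neither group, and the cause was not tested. Without the 3 untreated libraries it was -0.83 (adjusted p = 0.696). Myodin uncastrated boars had 315, 548 and 522 CPM and untreated boars 374 and 381 CPM, so that the values in boars did not have this order.

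Over all pigs the smallest p of the members with Myodin was that of MLXIPL. It ranged from 203 to 383 CPM in the 8 Myodin pigs and from 156 to 310.0 CPM in the 8 untreated pigs, and 5 of 8 Myodin pigs were above every untreated pig (log2 fold change 0.43 ± 0.15 SE, adjusted p = 0.517). Its log2 fold change in pigs without testes was 0.48 ± 0.18 (SE, adjusted p = 0.386). The next over all pigs were PLIN5 (0.49 ± 0.18 SE, adjusted p = 0.519), with 3 of 8 Myodin pigs above every untreated pig, and LPIN2 (-0.55 ± 0.22 SE, adjusted p = 0.584), with 6 of 8 below. CD36 followed with -0.38 ± 0.17 (SE, adjusted p = 0.634), PLIN4 with -0.58 ± 0.28 (SE, adjusted p = 0.678) and ELOVL5 with -0.19 ± 0.12 (SE, adjusted p = 0.778). When those 3 untreated libraries were left out, 2 of 22 members over all pigs and 4 of 22 without testes had an unadjusted p under 0.05, beside 357 of 8434 and 500 of 8723 genes. Other members with Myodin had wide ranges. FABP1 was at 1213 and 2254 CPM in castrated boars 8 and 9 and 1341, 512 and 535 CPM in sows 10, 11 and 12, and untreated pigs without testes ranged from 286 to 810 CPM (log2 fold change 1.16 ± 0.37 SE, adjusted p = 0.263). FADS1 was at 183, 168, 90.9, 155 and 139 CPM in Myodin pigs 8 to 12 and at 33.0 to 137 CPM in untreated pigs without testes (log2 fold change 1.20 ± 0.52 SE, adjusted p = 0.435). Here 4 of 5 Myodin pigs were above every untreated pig. CD36 ranged from 204 to 297 CPM with Myodin and from 198 to 470 CPM untreated (log2 fold change -0.48 ± 0.19 SE, adjusted p = 0.390), and ELOVL6 had 0.55 ± 0.24 (SE, adjusted p = 0.452). PLIN5 was at 246 to 268 CPM in 4 of the 5 Myodin pigs, and sow 10 had 498 CPM. DGAT1 was narrow, at 64.1 to 71.1 CPM, with a log2 fold change of 0.05 ± 0.18 (SE).

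Sustanon and Myodin were compared as given, at 4 and 5 mg/kg b.w., so that the steroid and the dose cannot be told apart. Over the 8 pigs of each, no member passed by edgeR, beside 0.664% of all genes, and 6 of 22 had an unadjusted p under 0.05, beside 18.1% of all genes. DESeq2 called 3, which were LPIN2, DGAT1 and DGAT2. It also called several times more of all genes than edgeR did, as counted in the last section, so the edgeR share is no background for these 3. The stellate and stromal genes had a median log2 fold change of 0.84 in this comparison and the hepatocyte genes one of 0.39. PLIN1 of the adipocyte list had -0.70, and the part of these cells in the values was not tested. LPIN2 was higher in 6 of 8 Sustanon pigs than in every Myodin pig, with a log2 fold change of 0.86 ± 0.23 (SE, adjusted p = 0.0667). DGAT1 had -0.57 ± 0.16 (SE, adjusted p = 0.0745), DGAT2 -1.01 ± 0.32 (SE, adjusted p = 0.108), MOGAT2 -2.18 ± 0.80 (SE, adjusted p = 0.157) and the elongase of long polyunsaturated chains ELOVL2 -1.48 ± 0.68 (SE, adjusted p = 0.242). LIPE, at 1.05 to 2.17 CPM with Sustanon and 1.27 to 4.66 CPM with Myodin, had -0.55 ± 0.22 (SE, adjusted p = 0.187). Over 7 other settings LIPE ranged from -0.58 to -0.29 and ELOVL2 from -1.50 to -0.92. Myodin uncastrated boars 23 and 24 had values for several of these genes on the side of the Sustanon pigs. They had 95.1 and 258 CPM of DGAT2, 0.188 and 0.586 CPM of MOGAT2, 30.3 and 25.0 CPM of THRSP and 493.3 and 470.2 CPM of PLIN5, while Myodin boar 22 had 595, 16, 10.2 and 263 CPM. Hepatocyte genes summed to 84951 and 78872 TPM in boars 23 and 24 and to 118136 TPM in boar 22, below the 140111 to 155587 TPM of the Sustanon and untreated boars. Red blood cell genes summed to 1402 and 494 TPM in boars 23 and 24 and to 2884 to 7916 TPM in the Sustanon and untreated boars. The part of these cells in the values of boars 23 and 24 was not tested. Without boar 23, LPIN2 (adjusted p = 0.0122), DGAT1 (0.00644) and DGAT2 (0.0112) passed by edgeR. Without boar 24, LPIN2 passed (0.0446). DGAT1 also passed without Sustanon castrated boar 1 (0.0285) or 3 (0.0258), and LPIN2 without castrated boar 3 (0.0192).

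Untreated uncastrated boars were compared with untreated pigs without testes to see the genes in animals that kept their testes. No member of 22 passed by edgeR, beside 1.43% of all genes, and 3 had an unadjusted p under 0.05, beside 14.5% of all genes. DESeq2 called 0. Without the 3 untreated libraries whose Y-linked counts went against their labels, 1 member had an unadjusted p under 0.05, beside 1095 of 8723 genes, of which 34 passed. The log2 fold changes were then -0.75 for CD36 (adjusted p = 0.198), 1.19 for FADS1 (0.575) and 0.46 for PLIN3 (0.467). With 2 boars the comparison is coarse, and 19.3% of all genes did not overlap between the groups, as DGAT1, FADS1 and PLIN3 did not. Kupffer cell and leukocyte genes summed to 174 to 177 TPM in these boars and 111 to 161 TPM in pigs without testes. Stellate and stromal genes summed to 106 to 163 and 42.6 to 123 TPM. The part of these cells in the boar values was not tested. CD36 was at 218 and 216 CPM in boars 25 and 27 and at 198 to 470 CPM without testes (log2 fold change -0.70 ± 0.26 SE, adjusted p = 0.208). FADS1 was at 210 and 156 CPM against 33.0 to 137 CPM (log2 fold change 1.51 ± 0.65 SE, adjusted p = 0.289). PLIN3 was at 211 and 208 CPM against 95.0 to 180 CPM (log2 fold change 0.59 ± 0.22 SE, adjusted p = 0.216). PLIN5 and DGAT1, which changed with Sustanon, had log2 fold changes of 0.32 ± 0.28 (SE) and -0.28 ± 0.24 (SE) in boars, and THRSP, which changed in pigs without testes, had 0.81 ± 0.81 (SE). FADS2 had 1.0 ± 0.60 (SE, adjusted p = 0.468), LPIN2 -0.55 ± 0.34 (SE, adjusted p = 0.474) and FABP1 0.77 ± 0.49 (SE, adjusted p = 0.488). Over 7 other settings FADS2 ranged from 0.63 to 1.67 and LPIN2 from -0.55 to -0.30. Among these settings, the fit of 9 groups set the boars against castrated boars only, without the sows. The Sustanon comparison shares these untreated pigs without testes.

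The Sustanon difference in boars was set against that in pigs without testes as an interaction term, and no member passed by edgeR, beside 0.0457% of all genes. Of the members, 4 of 22 had an unadjusted p under 0.05, beside 6.92% of all genes, and DESeq2 called 0. FABP1 had the smallest p. It was at 242 and 136 CPM in Sustanon boars 19 and 20 and 1238 and 543 CPM in untreated boars 25 and 27, while in pigs without testes it ranged from 385 to 1019 CPM with Sustanon and from 286 to 810 CPM untreated. The difference of log2 fold changes was -2.52 ± 0.73 (SE, adjusted p = 0.290). FADS1 was at 29.3 and 19.2 CPM in Sustanon boars and 210 and 156 CPM in untreated boars, and FADS2 at 36.7 and 20.8 against 153 and 126 CPM. Their interaction terms were -3.12 ± 1.04 (SE, adjusted p = 0.426) and -2.35 ± 0.92 (SE, adjusted p = 0.571). The fourth, ELOVL1, had the opposite sign, with 44.9 and 47.4 CPM in Sustanon boars and 22.5 and 34.8 CPM in untreated boars (0.68 ± 0.28 SE, adjusted p = 0.588). CD36 had a term of 0.66 ± 0.36 (SE, adjusted p = 0.751) and PLIN3 one of -0.60 ± 0.33 (SE, adjusted p = 0.756). When the 3 untreated libraries were left out, 3 of 22 members had an unadjusted p under 0.05, beside 570 of 8723 genes. For PLIN5, DGAT1 and THRSP the terms were -0.19 ± 0.40, -0.01 ± 0.34 and -1.62 ± 1.16 (SE), and none of the 3 passed.

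**Figure D4:**
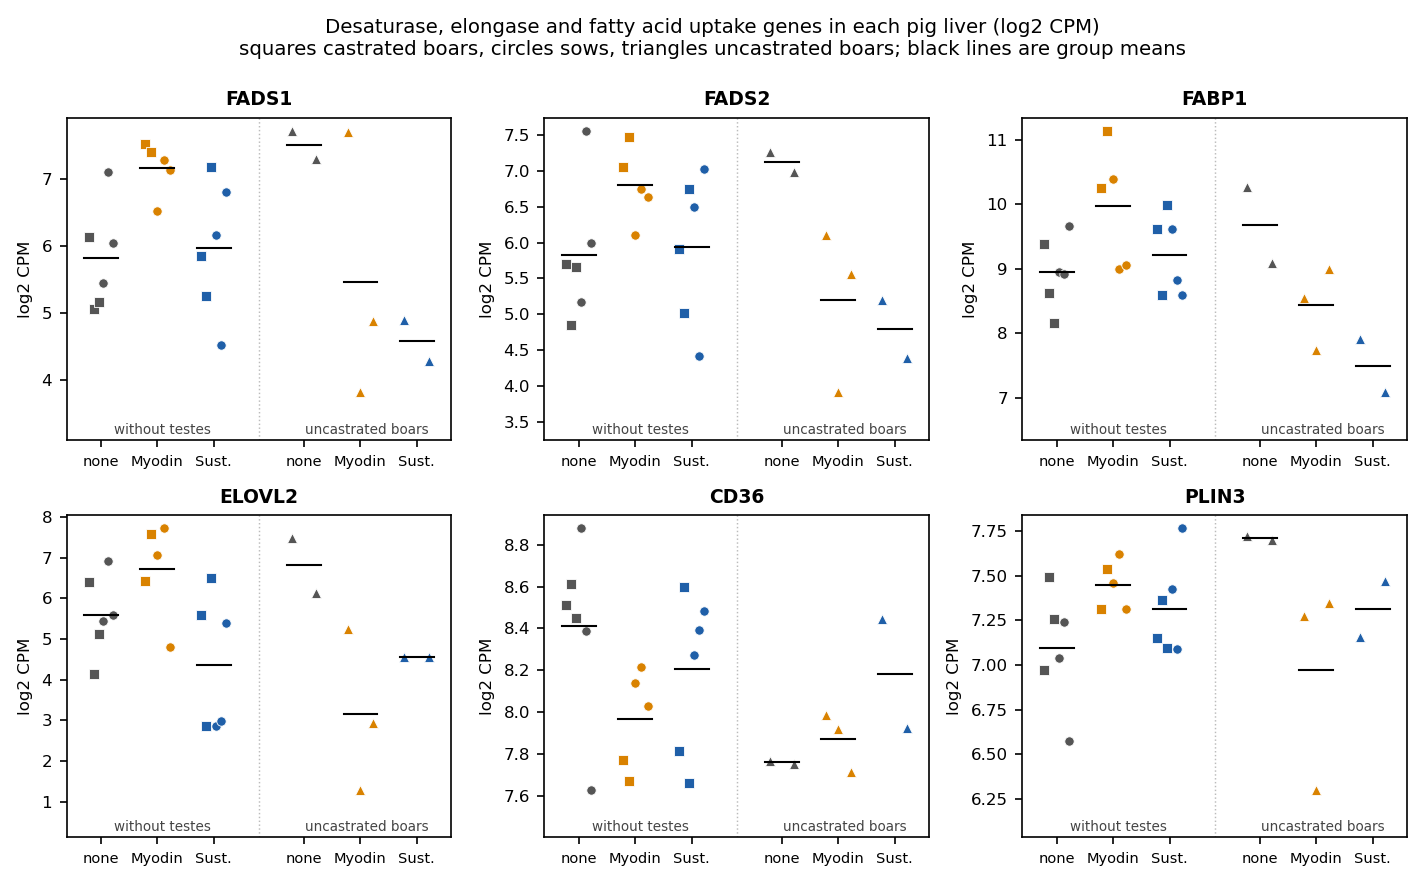
Log2 CPM of 6 genes in each pig, by treatment (none, Myodin, Sustanon), with pigs without testes left of the dotted line and uncastrated boars right of it. Black lines are group means. For FADS1, FADS2 and FABP1 the 2 Sustanon boars lie below the 2 untreated boars, while Sustanon and untreated pigs without testes overlap.

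A wider list of 74 lipid genes around these steps had 44 with a row and 43 tested. With Sustanon in pigs without testes, 5 of 43 passed by edgeR, 3 higher and 2 lower, beside 5.43% of all genes. HACD3, a dehydratase of the elongation cycle, rose from 149 to 232 CPM in untreated pigs to 218 to 439 CPM (log2 fold change 0.84 ± 0.21 SE, adjusted p = 0.0224). This call was lost without Sustanon pigs 2, 5 or 6 or untreated castrated boar 15 (log2 fold change at least 0.76, adjusted p up to 0.0621). PNPLA3, a droplet protein with lipase and acyltransferase activity, rose by 2.28 ± 0.56 on the log2 scale (SE, adjusted p = 0.0186), with all libraries. It was at 1.84, 4.64, 6.25, 2.79, 4.88 and 33.4 CPM in Sustanon pigs 1 to 6 and at 1.0 to 2.32 CPM in untreated pigs. Sow 6 stood far above the rest, and without it the log2 fold change was 1.14 (adjusted p = 0.0924), so that the call rested on this pig. Castrated boar 1 was inside the untreated range. SLC27A4, a fatty acid transport protein, rose by 0.57 ± 0.15 (SE, adjusted p = 0.0291), a call lost without Sustanon pigs 1 or 5 or untreated pigs 13, 15, 16 or 17 (log2 fold change at least 0.49, adjusted p up to 0.0794). SLC27A6, of the same family, fell by 1.72 (SE 0.39, adjusted p = 0.00979), from 10.2 to 22.6 CPM to 1.63 to 8.59 CPM, and these groups did not overlap, as in 3.27% of all genes. HSD17B11, a dehydrogenase found on lipid droplets, fell by 1.17 (SE 0.34, adjusted p = 0.0477), and it missed the threshold in 19 of 24 fits that each left out 1 library (log2 fold change -1.43 to -1.01 over the 24, adjusted p up to 0.115). The SLC27A6 call held in all 24. Over all pigs 2 of 43 passed, HACD3 and HSD17B11, which is 4.65% beside 5.07% of all genes. The HACD3 call held there in all 24 such fits, repeats added after seeing the data, and that of HSD17B11 was lost in 9.

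In untreated boars against pigs without testes, 3 of the 43 passed, beside 1.43% of all genes. The Kupffer cell and stromal sums given above for this comparison apply here too. PNPLA3 was higher, at 11.2 and 23.2 CPM (log2 fold change 3.22 ± 0.68 SE, adjusted p = 0.0222). The lipin LPIN1 was lower, at 9.66 and 16.9 CPM against 48.2 to 109 CPM (log2 fold change -2.54 ± 0.62 SE, adjusted p = 0.0381), and SLC27A6 was lower, at 1.71 and 3.01 CPM (log2 fold change -2.75 ± 0.65 SE, adjusted p = 0.0334). Each of these calls was lost without either boar, 25 or 27. The log2 fold changes were then 2.59 (adjusted p = 0.276) and 3.65 (0.0987) for PNPLA3, -3.0 (0.199) and -2.20 (0.513) for LPIN1, and -3.22 (0.194) and -2.41 (0.472) for SLC27A6, in fits where the boar that remained was assumed to vary like the other groups. The LPIN1 call was also lost without untreated pigs 14, 15 or 17 (adjusted p up to 0.0615) and that of SLC27A6 without 13 or 16 (adjusted p up to 0.0566). In the Myodin comparisons, in Sustanon against Myodin and in the interaction term 0 of the 43 passed by edgeR. At an unadjusted p under 0.05 there were 5 for Myodin over all pigs (beside 7.21% of all genes), 5 for Myodin without testes (beside 10.1%), 10 for Sustanon against Myodin (beside 18.1%) and 3 for the interaction (beside 6.92%). Without the 3 untreated libraries, a repeat added for this wider list after seeing the data, 0 of the 43 passed by edgeR in any comparison. With Sustanon in pigs without testes, 9 had an unadjusted p under 0.05. The counts over all genes in that fit are given above, with the members. There the log2 fold changes were 0.78 for HACD3 (adjusted p = 0.177), 2.39 for PNPLA3 (0.147), 0.47 for SLC27A4 (0.267), -1.60 for SLC27A6 (0.0967) and -1.20 for HSD17B11 (0.174). Those of the calls over all pigs and in boars are not given here, so a call lost there does not show a smaller difference.

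The 2 regulators with a row, MLXIPL and THRSP, were set against the synthesis genes ELOVL6 and ME1 across the 24 pigs, 4 pairs in all, by permutation tests of log2 CPM. THRSP and ELOVL6 had a Pearson r of -0.45 (permutation p = 0.0259, adjusted p = 0.104) and a Spearman rho of -0.48 (permutation p = 0.0182, adjusted p = 0.0728). Without Myodin sow 10 and Sustanon sow 4, the pigs farthest from the THRSP median, r was -0.43. Within treatments r was -0.53 with Sustanon, -0.80 with Myodin and 0.37 in untreated pigs, 8 pigs each, so the sign in the untreated group was the opposite. Without the 2 pigs farthest from the THRSP median of each treatment these were -0.50, -0.91 and 0.84. THRSP and ME1 had an r of -0.31 (permutation adjusted p = 0.292) and MLXIPL had 0.09 with ELOVL6 and 0.07 with ME1. Within treatments MLXIPL and ELOVL6 had an r of -0.72 with Sustanon, 0.18 with Myodin and 0.24 in untreated pigs, and the Sustanon value was -0.15 without sow 6 and castrated boar 1. MLXIPL and ME1 had -0.57 with Sustanon, 0.85 with Myodin and -0.37 in untreated pigs, so the signs differed between treatments, and the Myodin value was 0.51 without boar 24 and sow 11. On deviations from the means of the 6 groups of treatment and testes, THRSP and ME1 had an r of -0.59 (permutation adjusted p = 0.0108), which was -0.44 without Sustanon castrated boars 1 and 3. Within treatments this pair had an r of -0.70 with Sustanon, which was 0.08 without those 2 pigs, -0.16 with Myodin and -0.29 in untreated pigs, so the Sustanon value rested on those pigs. On the same deviations THRSP and ELOVL6 had an r of -0.26 (adjusted p = 0.451). The deviations were permuted freely across the 24 pigs, although subtracting group means ties them together within groups. The permutation p-values on deviations may therefore be too small.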

How the data were processed

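Per the labels and the study's methods, poly-A RNA of each liver was made into stranded TruSeq libraries, checked with FastQC, trimmed with Skewer and aligned with STAR 2.5 to Sscrofa11.1 in docker4seq. The counting tool is not given in the sources used here. The authors deposited raw counts per gene and log2(TPM + 1) values of the same libraries. A count of 0 stands beside a TPM above 0 in 329 cells of these tables. The members, the wider list and the marker lists were chosen with earlier results of these data known.

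Counts were tested in R 4.3.3 with edgeR 4.0.16 (filterByExpr, TMM, quasi-likelihood F test, two-sided) in a fit of 3 treatments and a fit of 6 groups of treatment and testes, with Benjamini-Hochberg adjustment over all genes tested. The study's methods name DESeq2, run here as an alternative (1.42.0) beside limma 3.58.1 on the log2 values. SE is the absolute log2 fold change over the root of F. CPM are TMM-scaled, log2 CPM have a prior count of 2, and TPM were converted back from the log2 values. Each library is 1 pig. Any of the 22 genes could be named with its level, and those called and the 6 with the smallest p in a comparison are given with their test. Test values of other genes, such as ME1, PNPLA2 and PLIN2, fall outside this rule and were chosen after their values were seen. On simulated counts edgeR recovered 84% of 2-fold changes with Sustanon over all pigs, 70% in pigs without testes and 47% in untreated boars. Of 18 planned pairs of regulator and enzyme, 4 had rows for both genes. Further alternatives were RLE scaling, no count filter, a log2 fold change of at least 1, sex class as covariate, 9 groups, only the groups compared, and libraries left out. Coordinates are from a RefSeq table of Sscrofa11.1.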

Additional observations from a re-analysis of the deposited data

Results flagged for a closer look

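Among 66 combinations of a gene and a group of 5 or 6 pigs without testes, 3 had a pig far from the others by Dixon's test on log2 CPM at the 95% level. Chance flags about 1 in 20 such groups. LPIN2 was at 255.83 CPM in Sustanon castrated boar 3, where the next lowest of the 6 pigs had 588 CPM. LIPE was at 4.66 CPM in Myodin sow 11, where the next of the 5 pigs had 2.27 CPM. PLIN5 was at 498 CPM in Myodin sow 10, where the next of the 5 pigs had 268 CPM. The cause was not tested.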

How the results depend on the processing

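No paired analysis was possible because each pig number occurs once and the groups share none. The member counts below are given without the share of all genes called in the same fits, apart from the totals further down. They show how calls moved and not how members compared with other genes. Over all Sustanon and untreated pigs, the 2 members called became 6 with DESeq2, 6 with sex class as a covariate, 5 in a fit of only these groups, 0 with a log2 fold change of at least 1, and 0 without the 3 untreated libraries. Leaving out 1 library gave 1 to 6, with 1 without Sustanon sow 5 or boar 19 and 6 without Sustanon castrated boar 1 or Myodin boar 23. In pigs without testes the 3 called became 5 with DESeq2, 1 with the fold threshold and 0 without the 3 libraries. Leaving out 1 gave 1 to 6, with 1 without Sustanon castrated boar 2 or sow 5 and 6 without Myodin boar 22. For Sustanon against Myodin, 0 became 3 with DESeq2, 1 with limma and 4 with the covariate, and 0 to 3 with 1 library left out. For Myodin without testes, 0 became 1 with DESeq2, and 0 to 1 with 1 library left out. The r of THRSP and ELOVL6 was -0.51 (permutation adjusted p = 0.0474) on the deposited log2 values and -0.61 (adjusted p = 0.0147) without the 3 libraries. The cause of these shifts was not tested. Of 294 values under other settings and 1008 with 1 library left out, 0 changed direction. They cover only the 6 members with the smallest p in each comparison. Some values outside them did turn without the 3 untreated libraries. For Sustanon in pigs without testes, FADS2 went from 0.07 to -0.29 and FADS1 from 0.21 to -0.11. Counts over all genes moved by more than 1.5 times with DESeq2, from 420 to 636 for Sustanon over all pigs, 55 to 276 for Sustanon against Myodin, 8 to 66 for Myodin without testes, 125 to 253 for untreated boars and 4 to 36 for the interaction. With the covariate 55 became 390, and in a fit of only the groups compared 9. Limma moved the median of all genes in untreated boars to 0.15. With 2 untreated boars, 25% of 2-fold and 68% of 4-fold simulated interactions were recovered.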
